A study of Arabidopsis thaliana with 36 samples.

Results

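AT4G12490 and AT4G12500 are neighbouring Arabidopsis thaliana genes of the EARLI1 type. They were chosen by their measured levels over the day, which were high at night, so those levels are given here as a description, without a test. The choice did not use their distribution between RNA free of polysomes and RNA on polysomes, which was tested. Levels and fraction differences come from the same arrays, so tests that include ZT18 are not fully independent of the choice. Each gene was read by its 1 single-gene probe set on the array, 254832_at for AT4G12490 and 254819_at for AT4G12500. They are 2 of the 13355 genes that a single-gene probe set measured and 2 of the 6845 genes bright enough to be tested (a mean of at least 4 on the log2 scale over all arrays). AT4G12500 passed this filter, with a mean of 4.72, only through ZT18, the time it was chosen for, since its mean over the 27 other arrays was 3.95. AT4G12490 had 6.32 over those arrays.

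EARLI1-type genes encode small secreted proteins of the cell wall and membrane system. A signal peptide is followed by a proline-rich stretch and then by the 8-cysteine motif of the lipid transfer proteins, a fold that encloses a hydrophobic pocket for lipids. The best known relatives lie beside the members in the genome. EARLI1 was found as an early aluminium-induced gene and also responds to cold, and AZI1 (azelaic acid induced 1) takes part in priming of systemic acquired resistance. An mRNA carrying many ribosomes sediments with large polysomes and one carrying few with small polysomes, while RNA without polysomes stays near the top of the gradient.

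The plants were wild-type seedlings of the Columbia background, 10 days old, and RNA came from their aerial part. They had grown on agar with Murashige and Skoog salts and 1% sucrose in days of 16 h light and 8 h dark. Harvests fell at Zeitgeber times (ZT, counted in hours from dawn) 0, 6, 12 and 18, of which ZT18 lay in the dark. RNA of each harvest was separated into non-polysomal, small polysomal and large polysomal RNA, with 3 replicates of each of the 12 combinations and 36 arrays in all. No agent or mutation was applied to any group, and seedlings overexpressing CCA1, which the design also names, were not analysed here. The labels do not say whether replicates were grown separately, so p-values measure only the spread between these samples.

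Replicate arrays of a group correlated at 0.978 to 0.995 over all probe sets. The 3 tested leaf markers were bright, with means of 12.6 for RCA, 14.1 for LHCB4.1 and 12.7 for PRK. Of the 10 root markers, only PYK10 had a probe set named here, and its mean was 9.95. Depth does not apply to arrays, and their number limits the precision. Every value is a log2 signal set against the average mRNA on the same array, so a change in the total mRNA of a fraction or time is not seen. In RNA from whole shoots, more cells expressing a gene and more RNA per cell cannot be told apart.

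Both genes were highest in darkness, in all 3 fractions on average. At ZT0, AT4G12490 measured 6.56, 6.06 and 2.54 in the non-polysomal RNA of replicates 1, 2 and 3. The small polysomal values of the same replicates were 7.36, 7.35 and 4.59, and the large polysomal values were 9.26, 9.02 and 5.64. Replicates 1 and 2 lay close together, and replicate 3 was the low one in each fraction.

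At ZT6 the non-polysomal values of AT4G12490 were 3.78, 3.01 and 6.02. The small polysomal values were 5.41, 4.57 and 7.13, and the large polysomal values were 7.49, 6.63 and 9.04. Here replicate 3 was the high one in every fraction.

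At ZT12 the non-polysomal values of AT4G12490 were 4.02, 3.93 and 8.07. The small polysomal values were 5.01, 4.60 and 8.54, and the large polysomal values were 7.10, 7.54 and 10.5. Replicate 3 again stood far above the other replicates in all 3 fractions.

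At ZT18 the non-polysomal values of AT4G12490 were 8.48, 9.24 and 8.86. The small polysomal values were 8.99, 9.49 and 9.31, and the large polysomal values were 10.6, 10.5 and 10.4. The replicates of the dark harvest lay close together, and in large polysomal RNA they overlapped with replicate 3 of ZT12.

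AT4G12500 was also highest at ZT18 and lowest at ZT6 on average. Its signal is not set against that of AT4G12490, because different probe sets have different sensitivities. At ZT0 its non-polysomal values were 3.71, 3.60 and 2.78, its small polysomal values 4.20, 5.40 and 3.18, and its large polysomal values 6.52, 6.78 and 3.33. At ZT6 the same fractions gave 2.20, 2.20 and 2.94, then 2.52, 2.43 and 3.77, then 4.20, 4.07 and 6.02. The low replicate of ZT0 and the high replicate of ZT6 were the same ones as for AT4G12490.

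At ZT12 the non-polysomal values of AT4G12500 were 2.20, 2.20 and 5.27. The small polysomal values were 2.20, 2.35 and 5.86, and the large polysomal values were 3.77, 3.85 and 9.02. Replicate 3 was high by several log2 units in each fraction.

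At ZT18 the non-polysomal values of AT4G12500 were 5.70, 6.19 and 5.19. The small polysomal values were 6.43, 7.36 and 6.90, and the large polysomal values were 8.37, 8.63 and 8.70. Replicate 3 of ZT12 lay within the range of the dark harvest in non-polysomal RNA and above all of it in large polysomal RNA, where its 9.02 was the highest value of the gene. The other arrays of the other times lay below the dark harvest in each fraction.

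The lowest value in the deposited table was 2.20, which 26.4% to 30.5% of the values on each array shared to within 0.1. AT4G12500 lay at this floor on 5 arrays, of which 4 were non-polysomal RNA from replicates 1 and 2 of ZT6 and ZT12, and the fifth was small polysomal RNA from replicate 1 of ZT12. AT4G12490 lay there on 0 arrays. A difference taken from a floor value is a lower bound.

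**Figure D1:**
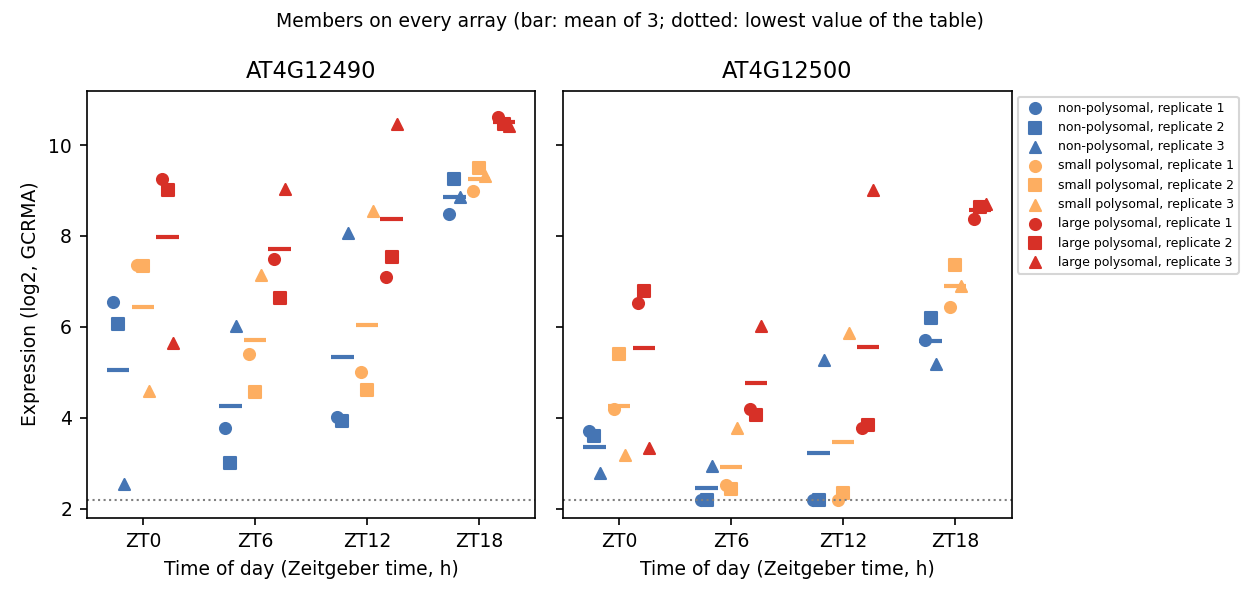
Expression of AT4G12490 and AT4G12500 (log2, vertical axis) on each of the 36 arrays by harvest time (horizontal axis), with colour for the fraction, symbol for the replicate, a bar for the mean of 3 and a dotted line at the lowest value of the table, 2.20. Red large polysomal points lie above blue non-polysomal points of the same replicate throughout, and replicate 3 stands apart at ZT0, ZT6 and ZT12 but not at ZT18.

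The level of a gene in an extract was taken as the mean of its 3 fractions. The level of AT4G12490 was 6.49 ± 1.93 (SD, n = 3) at ZT0, 5.90 ± 1.36 at ZT6, 6.59 ± 2.11 at ZT12 and 9.54 ± 0.19 at ZT18. For AT4G12500 these levels were 4.39 ± 1.14, 3.37 ± 0.76, 4.08 ± 2.28 and 7.05 ± 0.30. ZT18 came first and ZT6 last for both, and ZT0, ZT6 and ZT12 did not differ from each other beyond their spread.

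The mean at ZT18 exceeded those at ZT0, ZT6 and ZT12 by 3.05, 3.64 and 2.95 for AT4G12490 and by 2.66, 3.68 and 2.97 for AT4G12500. The 3 ZT18 extracts lay above all 9 others for both genes, as they did for 5.46% of the genes tested. ZT18 lay above ZT6 without overlap for both, as for 24% of genes. Nothing is read from these counts, since both genes were chosen for high levels at night. The gap between ZT18 and ZT12 for AT4G12500 was 4.35 without replicate 3.

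The replicates of a harvest differed far more for the members than for most genes. The within-time SD of the level, pooled over the 4 times, was 1.59 for AT4G12490 and 1.34 for AT4G12500, the 14th and the 24th largest of 6845, where the median gene had 0.207. The spread lay at ZT0, ZT6 and ZT12, while the SDs at ZT18 were 0.19 and 0.30. At ZT12 the levels of AT4G12490 were 5.38, 5.35 and 9.03 and those of AT4G12500 were 2.72, 2.80 and 6.71. Replicate 3 thus exceeded the mean of the other replicates by 3.66 and 3.95, which ranked 2 and 1 by size among all tested genes in that extract. Only 10 genes lay more than 2 above, and 8 lay more than 2 below.

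At ZT0 the levels were 7.72, 7.48 and 4.26 for AT4G12490 and 4.81, 5.26 and 3.10 for AT4G12500. Replicate 3 fell short of the others by a signed difference of -3.34 and -1.94, ranks 1 and 4. At ZT6 the levels were 5.56, 4.73 and 7.40 for AT4G12490 and 2.97, 2.90 and 4.24 for AT4G12500. There replicate 3 lay higher by 2.25 and 1.31, ranks 1 and 5. The same replicate was therefore the odd one for both genes at each of these times, but it was low at ZT0 and high at ZT6 and ZT12.

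Added poly(A) control RNAs, which were not made by the plant, had levels of 4.64 to 5.57 in 9 of the 12 extracts, and of 6.05 in replicate 3 of ZT12, 6.28 in replicate 2 of ZT18 and 6.35 in replicate 3 of ZT18. In replicate 1 of ZT18, where the control level was 5.10, the members stood at 9.36 and 6.83, against 9.73 and 9.53 for AT4G12490 and 7.39 and 6.93 for AT4G12500 in replicates 2 and 3. The mean of the 62 plastid-encoded genes tested ran from 7.76 in replicate 1 of ZT18 to 11.1 in replicate 2 of ZT18, with 9.98 in replicate 3 of ZT12 and 9.27 in replicate 3 of ZT0. The part of these measures in the dark levels and in the departures of replicate 3 was not tested.

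The levels of both genes moved together over the 12 extracts, with a Pearson correlation of 0.968 and a Spearman correlation of 0.895. After the mean of each time was removed, Pearson's r was 0.940. For large minus non-polysomal RNA it was -0.50, with floor values of AT4G12500 in 4 of the 12 extracts. Whether RNA of either member also bound the probes of the other was not tested. These are descriptions without p, since the points share arrays and both genes were chosen for the same daily pattern.

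**Figure D2:**
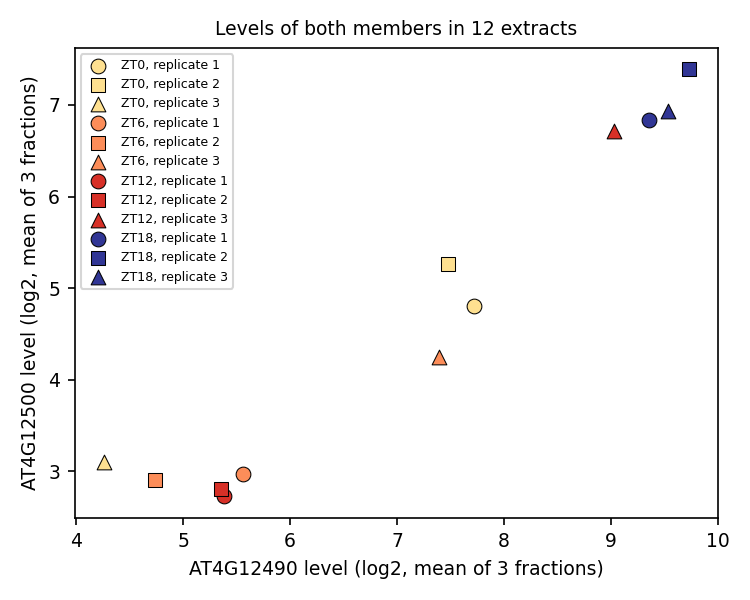
Level of AT4G12500 against level of AT4G12490 (both log2, mean of 3 fractions), with a point for each of the 12 extracts, colour for the time and symbol for the replicate. The ZT18 extracts sit at the upper right, replicate 3 of ZT12 lies just below them at 9.03 and 6.71, and replicate 3 of ZT0 lies at the lower left at 4.26 and 3.10.

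Both transcripts were enriched in large polysomal over non-polysomal RNA when set against the average mRNA. The differences were 2.76 ± 0.58 (SE) for AT4G12490, which is 6.78-fold, and 2.42 ± 0.51 for AT4G12500, which is 5.37-fold, as means over the 4 times. In the limma fit of all 36 arrays the adjusted p was 8.5e-05 and 9.2e-05. The values of AT4G12500 are lower bounds, because its non-polysomal value lay at the floor in 4 of the 12 extracts, and its difference was 2.97 without them (limma adjusted p = 1.3e-05). This call was made in the higher direction for 40.2% of the genes tested, so the call itself is common, but the members' differences ranked 15 and, as measured with the floor values, 52 of 6845 by size, against a median of 0.03. The large polysomal value was the higher one in 12 of 12 extracts for both, as for 25.2% of genes.

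Both transcripts were also enriched in large over small polysomal RNA. Large exceeded small polysomal RNA by 1.78 ± 0.58 for AT4G12490 (limma adjusted p = 0.0092) and by 1.72 ± 0.51 for AT4G12500 (0.0047), ranks 11 and 15 of 6845. Large was above small in 12 of 12 extracts for both, as for 16.2% of genes, and 30% of genes were called higher. Without a block, leaving out all extracts numbered replicate 1 gave an adjusted p of 0.083 for AT4G12490 and 0.060 for AT4G12500. Leaving out those numbered 2 gave 0.063 for AT4G12490. With the extract as a block and all extracts kept, the SEs were 0.11 and 0.19. The limma adjusted p was then 8.9e-14 and 5.6e-09, in a fit where 2305 of 6845 genes were called higher.

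Small polysomal RNA exceeded non-polysomal RNA by 0.98 ± 0.58 for AT4G12490 and by 0.70 ± 0.51 for AT4G12500, which did not pass the test (limma adjusted p = 0.143 and 0.238). The 3 fractions of an extract varied together, and with the extract as a block the same differences had SEs of 0.11 and 0.19 and adjusted p of 8.1e-09 and 0.0016. In that fit 37.3% of genes were called higher, against 33.5% without the block. Small was above non-polysomal in 12 of 12 extracts for AT4G12490, as for 17.2% of genes, and in 11 of 12 for AT4G12500, as at least 11 were for 25.9%. In the remaining extract of AT4G12500, replicate 1 of ZT12, both values lay at the floor, so their order is not known. The complete order of large over small over non-polysomal held in 12 of 12 extracts for AT4G12490 and in 11 for AT4G12500, and 4.88% of genes kept it in all 12.

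At single times the difference between large and non-polysomal RNA of AT4G12490 was 2.92 at ZT0, 3.45 at ZT6, 3.03 at ZT12 and 1.64 at ZT18 (SE 1.17 each, n = 3 extracts). The limma adjusted p was 0.034, 0.012, 0.028 and 0.239, so ZT18 missed the threshold. In the blocked fit the SE was 0.22 and all 4 times passed, with 3.0e-07 at ZT18. At ZT0, ZT6, ZT12 and ZT18, 29.1%, 28.7%, 28.2% and 29% of genes were called higher without the block and 33.6%, 32.7%, 32% and 33% with it. Without the block, each of the calls at ZT0, ZT6 and ZT12 was lost when replicate 1 or replicate 2 of that time was left out, and the call at ZT0 also without replicate 3, at adjusted p of 0.052 to 0.104.

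For AT4G12500 the differences were 2.18 at ZT0, 2.32 at ZT6, 2.33 at ZT12 and 2.87 at ZT18 (SE 1.03 each). The limma adjusted p was 0.071, 0.053, 0.054 and 0.019, so only ZT18 passed, and that call was lost without any 1 of its 3 extracts (adjusted p 0.056 to 0.118). It was also lost with no filter on dim genes (limma adjusted p = 0.060), a filter that AT4G12500 passed only through ZT18. With the extract as a block the SE was 0.37 and all 4 times passed, at 1.3e-05, 4.9e-06, 5.2e-06 and 2.3e-07. The ZT6 and ZT12 means rest in part on floor values in replicates 1 and 2. Without those 4 extracts, 1 extract was left at each of these times, with differences of 3.07 and 3.75.

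The fraction difference of AT4G12490 was smallest in the dark, when its level was highest. For this gene the large minus non-polysomal values were 2.70, 2.95 and 3.10 at ZT0, 3.71, 3.62 and 3.03 at ZT6, 3.08, 3.61 and 2.40 at ZT12, and 2.14, 1.22 and 1.57 at ZT18. All 3 ZT18 extracts lay below all 9 others, as for 2.25% of genes, and below the 3 of ZT6, as for 13.6%. Among those 9 the lowest value belonged to replicate 3 of ZT12, which also had the highest level.

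From ZT6 to ZT18 the fraction difference of AT4G12490 changed by -1.81 ± 1.65, short of the threshold in the fit without a block (limma adjusted p = 0.563, 95% interval -5.17 to 1.55). With the extract as a block the change was -1.81 ± 0.31, with an adjusted p of 3.5e-04 and an interval of -2.44 to -1.18. Called lower were 0.672% of genes without the block and 4.4% with it. The blocked call held without each of the 12 extracts in turn, at -2.06 to -1.60.

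AT4G12500 did not pass this test in either fit, and whether the change differed between the genes was not tested. Its large minus non-polysomal values were 2.81, 3.18 and 0.55 at ZT0, at least 2.00, at least 1.87 and 3.07 at ZT6, at least 1.58, at least 1.65 and 3.75 at ZT12, and 2.67, 2.44 and 3.51 at ZT18. The change from ZT6 to ZT18 was 0.56 ± 1.45 (limma adjusted p = 0.860) or 0.56 ± 0.53 with the block (0.501, interval -0.53 to 1.65), and -0.20 without the floor extracts. The change from ZT12 to ZT0 was -0.11 for AT4G12490 and -0.15 for AT4G12500 (limma adjusted p = 0.999 for both), and its sign turned when single extracts were left out (0.18 for AT4G12490 without replicate 2 of ZT12, and 0.67 and 0.56 for AT4G12500 without replicate 3 of ZT0 or of ZT12). That change was called in 0.146% of genes.

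**Figure D3:**
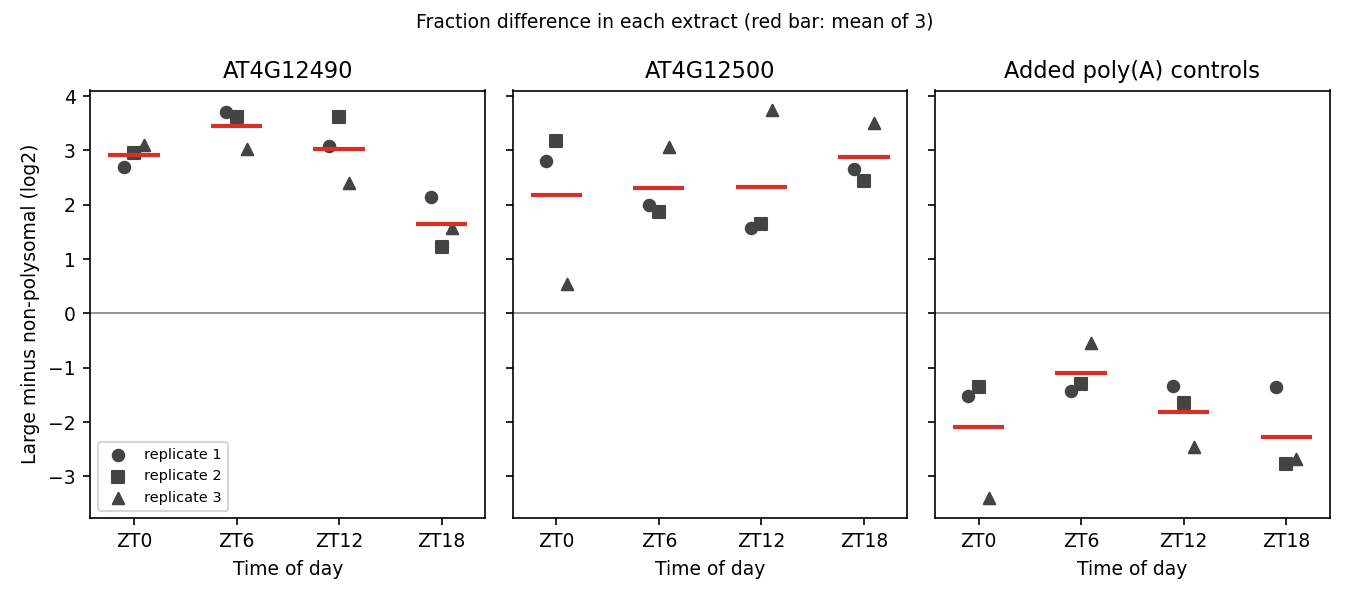
Large minus non-polysomal value (log2, vertical axis) in each of the 12 extracts by time, for AT4G12490, AT4G12500 and the mean of the added poly(A) controls, with a symbol for each replicate and a red bar for the mean of 3. AT4G12490 lies lowest at ZT18, between 1.22 and 2.14, AT4G12500 ranges from 0.55 to 3.75, and the controls lie below 0 in all extracts.

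The added poly(A) controls were lower on the large polysomal than on the non-polysomal array in 12 of 12 extracts, by a mean difference of -1.82 ± 0.82 (SD, n = 12). The hybridisation controls differed by -0.75 ± 0.22, also below 0 in all 12. At ZT18 the poly(A) difference was -1.35, -2.77 and -2.68 in replicates 1, 2 and 3, against -1.43, -1.31 and -0.54 at ZT6. AT4G12490 had its highest ZT18 difference, 2.14, in replicate 1. The lowest poly(A) difference of all, -3.41, was that of replicate 3 of ZT0, where AT4G12490 stood at 3.10, its highest value of that time. AT4G12500 stood at 0.55 in that extract, its lowest value of the 12 extracts. The part of these controls in the drop of AT4G12490 or in the values of AT4G12500 was not tested.

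Between the members, the large minus non-polysomal difference of AT4G12490 exceeded that of AT4G12500 by 0.34 ± 1.50 (SD, n = 12), and was the larger in 5 of 12 extracts. An exact sign-flip permutation test, 2-sided, gave p = 0.445, where the smallest p it can give is 0.00049. Without the 4 floor extracts the mean turned to -0.36 (exact p = 0.461).

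The genes most like AT4G12490 in level over the 12 extracts were AT4G12500 (Pearson's r 0.968), AT5G64120 (0.939), AT5G20790 (0.938), AT3G18250 (0.917) and PUB24 (0.893). For AT4G12500 they were AT5G64120 (0.980), AT4G12490, AT3G18250 (0.954), PUB24 (0.934) and AT2G43620 (0.929). AT5G64120 is PRX71, a peroxidase of the secreted class that acts on cell wall compounds, and PUB24 is a plant U-box protein of the ubiquitin ligase type. The other 3 genes carry no name in the gene table used here.

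These genes were picked by their likeness over the same 12 extracts, so a shared dark peak and shared odd extracts follow from the choice and are a description. At ZT12, AT5G64120 had levels of 5.02, 5.55 and 7.98 in replicates 1, 2 and 3. AT2G43620 had 4.54, 5.15 and 8.28, and AT3G18250 had 4.75, 4.11 and 7.42. In all 3 genes replicate 3 was the high one, as for the members. At ZT6, where replicate 3 was high for the members, AT5G64120 had 5.74, 5.45 and 5.74, AT3G18250 had 5.54, 4.66 and 4.88, and AT2G43620 had 4.89 to 5.08, with replicate 2 the highest. None of these 3 genes had its highest level in replicate 3 there, though replicates 1 and 3 of AT5G64120 were nearly equal. The remaining genes went the other way at ZT6. AT5G20790 had 5.42, 4.84 and 5.78 and PUB24 had 3.98, 4.05 and 4.16, both highest in replicate 3 like the members.

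**Figure D4:**
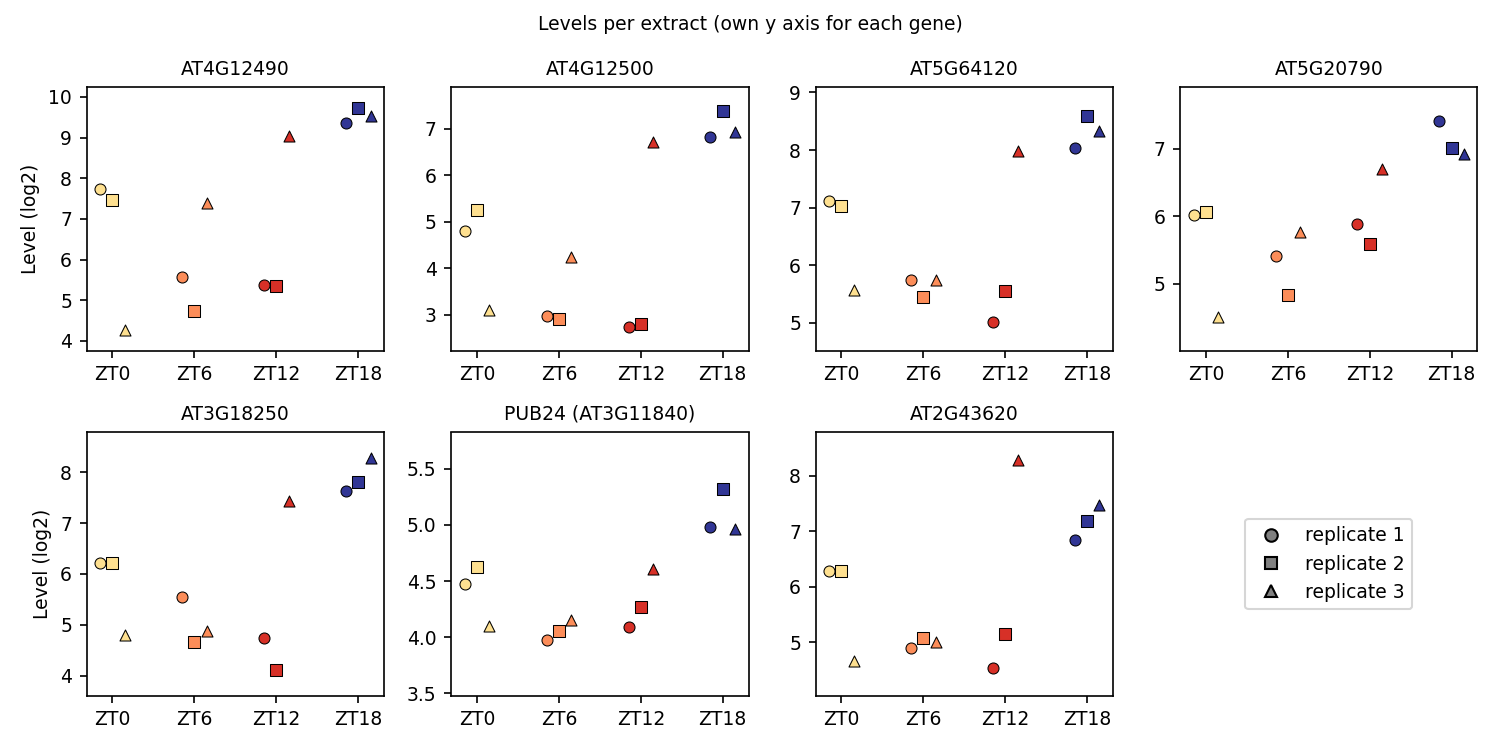
Level (log2, mean of 3 fractions, own vertical axis for each gene) in the 12 extracts by time for the members and the 5 other genes whose levels followed theirs most closely, with a symbol for each replicate. Replicate 3 is the highest ZT12 point in all panels, with 7.98 for AT5G64120 and 8.28 for AT2G43620, and the lowest ZT0 point in all.

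The fractions of these genes differed from each other. In large against non-polysomal RNA, AT2G43620 was higher by 2.37 ± 0.42 and AT5G64120 by 1.77 ± 0.34 (limma adjusted p = 8.2e-06 and 2.5e-05). PUB24 was lower by a difference of -0.59 ± 0.13 (1.9e-04). AT3G18250 differed by 0.05 ± 0.40 and did not pass (0.910). AT5G20790 differed by 0.52 ± 0.23 (0.043), a call that was lost under median centring (0.43, 0.086) and without replicate 1 of ZT0 (0.46, 0.086), among others.

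In gene order the members stand between EARLI1 and a run of further genes, not all of them on the family list. The order is AZI1 (AT4G12470), EARLI1 (AT4G12480), AT4G12485, AT4G12490, AT4G12495, AT4G12500, AT4G12510, AT4G12520, AT4G12530, AT4G12540, AT4G12543, AT4G12545 and AIR1 (AT4G12550). AT4G12495 lies within the span of AT4G12490. The list of the EARLI1 cluster did not hold AT4G12485, AT4G12495, AT4G12540 and AT4G12543. The probe table names no probe set for AZI1, EARLI1 or AIR1, so their RNA was not analysed here. Whether RNA of these close relatives also bound the members' probes was not tested.

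The measured neighbours were dim. The probe set shared by AT4G12510 and AT4G12520 ran from 2.20 to 3.77 and passed 3 on 2 of 36 arrays, with its highest value in large polysomal RNA of replicate 2 at ZT0. AT4G12530 never exceeded 2.21, and AT4G12540 reached 2.90. None of these neighbours had a bright signal in the dark.

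Among 14 related proline-rich or 8-cysteine-motif genes elsewhere in the genome, 5 were tested. In large against non-polysomal RNA, 4 were higher and 1 was lower, where 40.2% and 37.5% of all genes were. Their median was 1.58 against 0.03 over all genes. AT2G10940 was higher by 3.14 ± 0.11, AT1G62510 by 1.90 ± 0.20, AT4G22470 by 1.58 ± 0.33 and AT2G45180 by 0.84 ± 0.12, while AT1G12100 differed by -1.34 ± 0.13. Thus AT2G10940 had a larger difference than either member and AT1G12100 the opposite sign.

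Their levels over the day were mixed. From ZT6 to ZT18, 1 of the 5 rose (AT2G10940, 0.72 ± 0.15), 1 fell (AT1G62510, -4.27 ± 0.33) and 3 did not pass, where 17.6% of all genes rose and 20.4% fell. In AT2G10940 and AT1G12100 all 3 ZT18 extracts lay above the 9 others, as for 5.46% of all genes, at 11.49, 11.48 and 11.25 against at most 11.19 and at 4.63, 4.70 and 4.80 against at most 4.58. The change of AT1G12100 from ZT6 to ZT18 was 0.23 ± 0.18 and did not pass. From ZT12 to ZT0, 2 of 5 were higher, where 18.4% of all genes were, AT1G62510 by 0.92 and AT2G45180 by 0.64, and both calls were lost without replicate 1 of ZT12 (0.68 and 0.51, limma adjusted p = 0.173 and 0.052), the first also without other single extracts. AT4G22470 had levels of 3.12, 2.83 and 5.62 in replicates 1, 2 and 3 of ZT12, and so shared the high replicate 3, but its dark values of 3.78, 3.93 and 3.95 were not raised.

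Of 39 lipid transfer protein genes, which share the cysteine motif without the proline-rich stretch, 9 were tested. In large against non-polysomal RNA 5 were higher and 2 were lower, where 40.2% and 37.5% of all genes were, and 2 were not called. The median of the 9 was 0.36. AT3G18280 was higher by 2.28 ± 0.15 and AT5G01870 by 2.06 ± 0.15, and AT5G48490 differed by -0.66 ± 0.11. From ZT6 to ZT18, where 20.4% of all genes fell and 17.6% rose, the level of 3 of the 9 fell, AT2G37870 by the most at -3.45 ± 0.26, and that of 1 rose, AT1G62790 at 0.51 ± 0.17, a call lost without replicate 2 or 3 of ZT6 or of ZT18 (limma adjusted p 0.079 to 0.136). From ZT12 to ZT0, 1 was higher (AT5G48490, 1.83 ± 0.17) and 2 were lower, where 18.4% of all genes were higher and 18.4% lower.

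The fraction difference of 3 of these 9 genes rose from ZT6 to ZT18, where 4.37% of genes were called higher. AT5G01870 changed by 1.98, AT3G18280 by 1.47 and AT1G62790 by 1.24, the opposite sign to AT4G12490. In the fit without a block these calls were lost when single extracts were left out. That of AT5G01870 was lost without replicate 3 of ZT6 (1.93, limma adjusted p = 0.052). That of AT3G18280 was lost without any 1 extract of ZT6 or replicate 1 or 3 of ZT18 (1.33 to 1.54). That of AT1G62790 was lost without replicate 1 or 3 of either time (0.98 to 1.19). With the extract as a block, 3 of the 9 genes were called higher, where 680 of 6845 genes were.

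**Figure D5:**
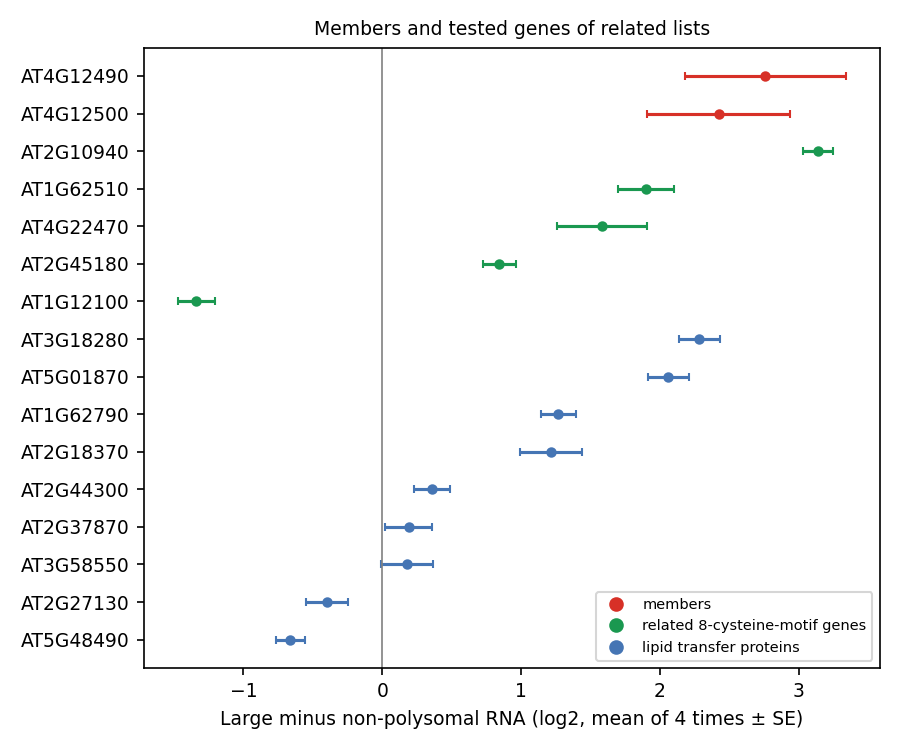
Large minus non-polysomal RNA (log2, mean of the 4 times, bars show the SE of the fit) for the members and the tested genes of the related lists. The members, at 2.76 and 2.42, have wider error bars than their relatives, which run from -1.34 for AT1G12100 to 3.14 for AT2G10940. These bars come from the fit without a block. With the extract as a block the SEs were 0.11 for AT4G12490 and 0.19 for AT4G12500. Those of the tested related 8-cysteine-motif genes were then 0.10 to 0.13.

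Because the family is known for systemic immunity, a list of 25 genes of that pathway was examined, and 2 were tested. SAG101, a lipase-like partner of the immune regulator EDS1, had a higher level at ZT18 than at ZT6 (0.95 ± 0.22), where 17.6% of all genes rose. This call was lost with all extracts numbered replicate 3 left out (0.82, limma adjusted p = 0.090). Its levels at ZT12 were 6.43, 7.53 and 6.96, with replicate 2 the high one. AT5G52810 had 6.60, 6.41 and 7.04 at ZT12, and its change from ZT6 to ZT18 was -0.04 ± 0.25. From ZT12 to ZT0 both genes were called lower, where 18.4% of all genes were. Those calls were lost with replicate 2 or 3 left out for SAG101 and with replicate 1 left out for AT5G52810, among others. In large against non-polysomal RNA they differed by -1.14 ± 0.13 and 1.61 ± 0.15.

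Of 20 touch and wound genes, 3 were tested, and 0 were called in level between ZT18 and ZT6 by limma, with 0 also at an unadjusted p under 0.05. STZ, a zinc finger repressor of stress responses, had levels of 6.52, 8.01 and 4.51 in replicates 1, 2 and 3 of ZT12, and AT4G27280 had 8.03, 10.4 and 5.94. Replicate 3, the high one for the members, was the low one for both. AR781 had 6.01, 6.91 and 5.68 there. From ZT12 to ZT0 the levels of STZ (-1.93 ± 0.62) and AR781 (-1.74 ± 0.29) fell, where 18.4% of all genes did, and the call of STZ was lost without replicate 2 or 3 of ZT0 or replicate 1 or 2 of ZT12, with -1.10 (limma adjusted p = 0.086) in the last case. In large against non-polysomal RNA, 1 of 3 was lower, where 37.5% of all genes were, AR781 at -0.50 ± 0.19, a call lost without replicate 2 of ZT0 (-0.44, adjusted p = 0.062), and 2 of 3 were lower with the extract as a block, where 39.6% of all genes were.

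The tissue markers differed among themselves. Among the 3 tested leaf markers, 0 rose from ZT6 to ZT18, where 17.6% of all genes rose. LHCB4.1 fell by 0.57 ± 0.12, where 20.4% of all genes fell. In large against non-polysomal RNA LHCB4.1 alone differed, by -0.34 ± 0.07, where 37.5% of all genes were lower. With the extract as a block RCA was also called, at 0.27, where 42.2% of all genes were higher. PYK10, the root marker, was higher in large than in non-polysomal RNA, with a difference of 1.17 ± 0.12, the same direction as the members. It changed by -0.96 ± 0.17 in level from ZT6 to ZT18. Its ZT12 levels were 10.2, 10.4 and 9.82, so replicate 3 was not the high one.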

How the data were processed

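The authors deposited log2 values, 1 per probe set and array, which came from GCRMA (affy 1.42.3, R 3.1), per the submitters' processing notes. Per the labels' protocols, cDNA was primed with oligo(dT) and biotinylated cRNA was hybridised to Affymetrix arrays. The table held 22810 probe sets, 64 of them controls. The probe table paired 13513 with 1 gene and 503 with several, and did not list 8730, which are unnamed here. Current names came from the TAIR10.1 gene table, where 6836 of 6845 tested genes matched. It served for names and gene order only, since no build is given in the sources used here. Sequences of the members were not used here.

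Genes with a mean of at least 4 over the arrays were tested (6510 were left out), by the brightest single-gene probe set. Fractions were compared with limma 3.58.1 in R 4.3.3 over 12 groups of 36 arrays, and the levels of listed genes over 12 extracts (an extract is a time and replicate number). Calls were 2-sided at a Benjamini-Hochberg adjusted p under 0.05 over all tested genes. Signals of fractions in 1 extract deviated together in 36 of 36 pairs (r 0.13 to 0.68), so the numbers pair the fractions, and the fit with the extract as a block is given where it changed a call. The script was tested on simulated data.

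The members and the lists (EARLI1 cluster, related 8-cysteine-motif genes, lipid transfer proteins, systemic immunity, touch and wound genes, leaf and root markers) were chosen with earlier results of these data known. Named were the members, their measured neighbours, at most 4 called genes per list and comparison, and the 5 genes most correlated with each member. Values of list genes that were not called, and the levels of single extracts, were added after they were seen. Alternatives were the scaling, the filter, the variance prior, the probe set rule, how a level is summed, the block and left-out replicates and extracts.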

Additional observations from a re-analysis of the deposited data

Results flagged for a closer look

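From ZT6 to ZT18, large minus non-polysomal RNA of AT4G12490 changed by -1.81 (limma with the extract as a block, adjusted p = 3.5e-04). This drop is listed because in that fit the fraction difference itself differed between 2 times. In the same fit 4.4% of genes were called lower. Without the block the change did not pass (limma adjusted p = 0.563). All 3 extracts at ZT18 lay below all 3 at ZT6, as for 13.6% of genes. The added poly(A) controls also had a lower difference at ZT18 in replicates 2 and 3, and their part was not tested.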

How the results depend on the processing

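Large minus non-polysomal RNA over the 4 times kept its direction and its call for both members under each scaling, filter, prior, probe set rule, block and left-out replicate or extract, at 2.69 to 2.88 for AT4G12490 and 2.25 to 2.63 for AT4G12500 when extracts or replicates were left out. Leave-out ranges were 0.90 to 1.05 and 0.59 to 0.86 for small minus non-polysomal RNA and 1.70 to 1.92 and 1.59 to 1.86 for large minus small. They were -2.06 to -1.51 and 0.24 to 0.94 for the change from ZT6 to ZT18, and -0.52 to 0.18 and -0.98 to 1.38 for that from ZT12 to ZT0; with the block the latter were -0.42 to 0.18 and -0.65 to 0.67 (0.56 without replicate 3 of ZT12), and the blocked change of AT4G12490 was -1.68, -1.72 and -2.02 without replicates 1, 2 and 3 of ZT6, and -2.06, -1.60 and -1.77 without those of ZT18. At ZT0, ZT6, ZT12 and ZT18 they were 2.83 to 3.03, 3.32 to 3.67, 2.74 to 3.34 and 1.39 to 1.85 for AT4G12490, and 1.68 to 3.00, 1.94 to 2.54, 1.62 to 2.70 and 2.55 to 3.09 for AT4G12500. For the level gap of AT4G12500 between ZT18 and ZT12 they were 2.16 to 4.35. Genes called numbered 345 (0 to 418) for the change from ZT6 to ZT18, 10 (0 to 13) for that from ZT12 to ZT0, and 2596 (1641 to 2798) and 2517 (1623 to 2580) for the levels. The 0 calls came with replicate 3, or with replicate 1 or an extract of ZT0 or ZT12, left out, where fewer samples remained.

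For AT4G12490 the call at ZT0 was lost with cyclic loess (2.71), no filter (2.92) or a trended robust prior (2.92), and that at ZT12 with no filter or that prior (3.03). For AT4G12500 the call at ZT18 was lost with no filter (2.87). The count of changes from ZT12 to ZT0 was 40 with no filter and 18 with that prior. With the replicate block (extract), small minus non-polysomal RNA passed for both (0.98 and 0.70), as did the change of AT4G12490 (-1.81), its difference at ZT18 (1.64) and those of AT4G12500 at ZT0, ZT6 and ZT12 (2.18, 2.32 and 2.33), with 981 and 53 genes called for the changes. Signals with the same replicate number at 2 times exceeded a correlation of 0.1 in 13 of 18 pairs (r -0.11 to 0.62). This does not settle whether the numbers pair the times. The replicate number as a block gave 2826 and 2644 calls in level, against 2596 and 2517 without it.

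Without the floor extracts, an alternative chosen after seeing the data, AT4G12500 gave -0.20 for the change from ZT6 to ZT18 with and without the block, 2.18, 3.07 and 3.75 at ZT0, ZT6 and ZT12, and 0.88 for small minus non-polysomal RNA with the block. The difference between the members was then -0.36. Median centring shifted the median gene by -0.13 in small minus non-polysomal RNA, with 40.7% instead of 53.5% of calls higher, and cyclic loess by -0.12 in large minus non-polysomal RNA. The cause of these changes was not tested.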
